A study of Mus musculus with 4 samples.

Results

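Liver RNA of GALP-treated mice that lost more weight was compared with that of GALP-treated mice that lost less. The comparison is the difference between log2(GALP/control) of the greater weight loss pool and log2(GALP/control) of the less weight loss pool. It used all 4 arrays of the series, and it was followed in 11400 measured genes of 26591 gene names on the array. A gene was measured when its brightest probe was well above background in at least 1 channel on all 4 arrays and carried no outlier mark.

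The mice were male C57BL/6J with diet-induced obesity, bought at 8 weeks of age, made obese by 14 weeks on a high-fat diet and weighing at least 40 g. All groups shared strain, sex and diet. GALP-treated mice received porcine GALP (galanin-like peptide, residues 1 to 60), 1 nmol in 2 µL of saline with 5% α-cyclodextrin, into the nose once daily for 11 days, and control mice received saline by the same route. RNA was pooled before labelling, so each weight loss group is 1 pool of 4 mice and the control is 1 pool of 8 mice. Each GALP pool was hybridised against control RNA on 2 arrays, with GALP in Cy5 on one and in Cy3 on the other. In the labels the control RNA of each array also carries a weight loss group, whereas the methods of the study describe a single control pool. With 1 pool per group no test was possible, and the spread given as SD is that of the 2 dye orientations, which is technical. Variation between mice is not seen here, and both ratios share the control.

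GALP is a neuropeptide of the galanin family made in the hypothalamus, where it acts on feeding and energy balance and responds to leptin. The liver answers such signals through hormones and nerves, and it adjusts lipid synthesis, fatty acid oxidation, bile acid synthesis and the secretion of hepatokines. The male mouse liver also holds a programme of genes that follow the pulsatile release of growth hormone through the transcription factor STAT5B, among them the Hsd3b4 and Hsd3b5 steroid dehydrogenases and the major urinary proteins.

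Most liver genes hardly separated the pools. The median difference over all measured genes was 0.01 on the log2 scale, the median absolute difference was 0.10, and most genes lay between -0.47 and 0.49. The median SD of the 2 orientations was 0.13. A gene was counted when it differed by at least 1.5-fold in the same direction in both orientation-matched pairs of arrays. By this mark 100 genes (0.877%) were higher and 100 genes (0.877%) were lower in the greater weight loss pool. Single channels were also compared between greater and less arrays of the same dye, after quantile scaling, at the same 1.5-fold mark. For the control channels 29 genes (0.254%) were higher and 44 (0.386%) were lower. For the GALP channels 116 (1.02%) were higher and 108 (0.947%) were lower. The 2 orientations correlated across the 11400 genes with r = 0.59 for the differences of ratios. For single channels, a different measure, r was 0.39 for GALP and 0.03 for the control. These points share arrays, slide and probes, and genes are not independent replicates. Of the counted genes, 58 higher and 54 lower genes were among the 2850 dimmest.

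Pancreas and skeletal muscle transcripts made up much of the counted genes and are set apart here before the liver genes. Of 45 pancreas genes, 31 were measured, and all 31 were lower in the greater weight loss pool (background 0.877%). Of 50 skeletal muscle genes, 29 were measured, and 24 were higher in the greater weight loss pool while 0 were lower. With normexp and loess, 28 pancreas genes were lower and 10 muscle genes were higher. Where all GALP channels had to be well above background, 24 of 24 pancreas genes were lower and 11 of 14 muscle genes were higher. The pancreas median was -4.36 for the difference, with a median ratio to the control of -3.73 in the greater pool and 0.73 in the less pool. The skeletal muscle median was 2.30 for the difference, with a median ratio of 0.12 in the greater pool and -2.14 in the less pool. So the 2 tissues did not move together: pancreas transcripts were far below the control in the greater pool, and muscle transcripts were far below it in the less pool.

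The summed processed signal of the measured pancreas list was 31209 and 23513 in the GALP channel of the greater arrays, 527165 and 520075 in that of the less arrays, and between 297711 and 367452 in the control channels. That of the muscle list was 19443 and 16602 in the greater arrays, 5916 and 5654 in the less arrays, and between 14446 and 17385 in the control channels. The defining pancreas markers were present in the control and less pools: Cel, the bile salt-activated lipase of the acinar cell, had ratios of -3.63 and -3.85 in the greater pool and 0.79 and 0.88 in the less pool. Ins2, one of the mouse insulin genes, had ratios of -3.76 and -4.28 in the greater pool and 2.42 and 1.93 in the less pool. Neither greater array was well above background for Ins2, which was thus at least 26.3-fold lower there. Cuzd1, an acinar gene, was likewise a limit, at least 15.3-fold lower. A limit of this kind sets the brighter pool's mean ratio against that of the dim pool, with the dim GALP signal raised to the lowest signal well above background on its array where it lay below that. The digestive enzymes Cela3b and Pnliprp1 differed by -5.05 ± 0.21 and -5.01 ± 0.18 and the regenerating protein gene Reg1 by -5.40 ± 0.13 (log2 differences ± SD of the orientations). Of the muscle genes, Ckmt2, a mitochondrial creatine kinase, had ratios of 0.24 and 0.12 in the greater pool and -2.63 and -4.40 in the less pool, where 1 of the 2 arrays was well above background, as for Tcap. Differences of 3.32 ± 1.12 for the sarcomere protein gene Tcap, 3.21 ± 0.09 for fast troponin T (Tnnt3), 3.15 ± 0.30 for fast troponin C (Tnnc2) and 3.13 ± 0.07 for the myosin light chain Myl1 followed. For the median of each set the 2 arrays of a pool lay on the same side of both arrays of the other pool. In bulk RNA fewer cells of a type and less RNA per cell cannot be told apart, and the part of tissue taken with the liver in these differences was not tested.

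Genes outside the lists that are known from the same tissues behaved alike and were set aside with them, a choice made after their values were seen. On the muscle side these were 7 counted genes: Fabp3, Cacna1s, Lmod3, Myh8, Nrap, Slc2a4 and Ak1. Fabp3, the fatty acid-binding protein of heart and muscle, had ratios of 0.19 and 0.18 in the greater pool and -2.76 and -1.60 in the less pool. Cacna1s, the muscle calcium channel, had ratios of 0.11 and 0.12 in the greater pool and -1.25 and -1.53 in the less pool. Slc2a4, the insulin-responsive glucose transporter of muscle and fat, differed by 1.18 ± 0.16. Myh8, a developmental myosin, was at least 3.86-fold higher, its less weight loss arrays being not well above background. On the pancreas side 6 counted genes were set aside, among them Pdia2, the pancreatic protein disulfide isomerase, which was at least 19.4-fold lower in the greater pool. Dmbt1, a secreted mucosal glycoprotein, had ratios of -2.31 and -2.19 in the greater pool and 0.57 and 0.74 in the less pool. The glandular kallikreins Klk1b8, Klk1b4 and Klk1b3 differed by -1.48 ± 0.06, -1.40 ± 0.16 and -1.20 ± 0.27, and since these neighbours on chromosome 7 are near-identical copies their probes may share signal. In the stomach and intestine list (16 of 39 genes measured) 7 genes were lower and 1 was higher, beside 0.877% each way over all genes. This list depended on the processing. With normexp and loess 3 were lower, and where all GALP channels had to be well above background 3 of 9 were lower. Its median difference was -0.72, but -0.12 with normexp and loess and -0.09 with that filter. Agr2, a secretory gene of mucosal epithelium, was at least 7.35-fold lower. Tff2 and Gkn3, secretory genes of the stomach, differed by -4.47 ± 0.41 and -3.89 ± 0.15, whereas Tff3, a trefoil factor, differed by 3.04 ± 0.40. With the lists and these further genes left out, 67 higher and 56 lower genes remained.

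**Figure D1:**
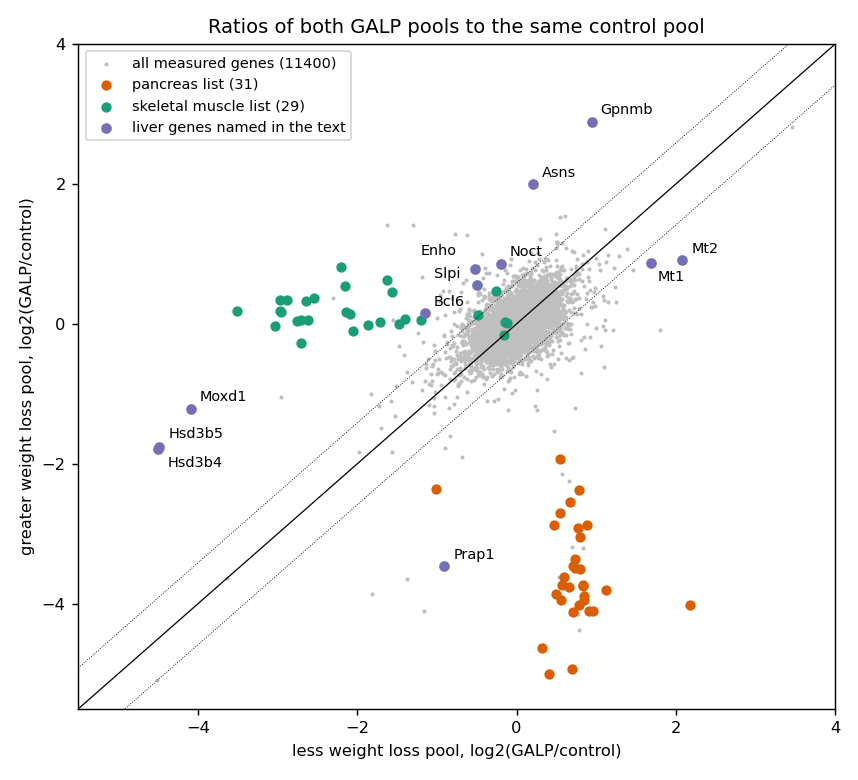
Each point is a gene: the x axis is log2(GALP/control) of the less weight loss pool and the y axis that of the greater weight loss pool, each the mean of 2 arrays, with equality as a solid line and 1.5-fold either side dotted. Pancreas genes (31) lie below the line near -3.73 on the y axis. Skeletal muscle genes (29) lie to the left near -2.14 on the x axis. The other genes named do not all stand apart from these. Bcl6, at -1.15 on the x axis and 0.16 on the y axis, lies near the muscle gene Cacna1s, at -1.39 and 0.11. Prap1, at -0.90 on the x axis and -3.46 on the y axis, lies near the height of the pancreas genes.

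Genes of the male-biased liver programme had some of the largest differences that remained. Hsd3b4, a 3-ketosteroid reductase of the liver, had ratios to the control of -1.78 and -1.80 in the greater pool and -4.36 and -4.63 in the less pool. It was therefore below the control in both pools, at 0.29 of the control level in the greater pool and 0.044 in the less pool, and 6.54-fold apart between them (difference 2.71 ± 0.18). Its probe lies at chr3:98303072-98303131 on mm9. The neighbouring Hsd3b5, with a probe at chr3:98422848-98422907, had ratios of -1.81 and -1.70 in the greater pool and -4.32 and -4.65 in the less pool, with 1 of the 2 less arrays well above background. The 2 genes are near-identical copies, so a shared signal cannot be told apart from a shared level. Moxd1, a monooxygenase X homologue with strong male bias, had ratios of -1.21 and -1.21 in the greater pool, and in the less pool it was not well above background on either array. Its difference was therefore a limit, at least 1.82-fold higher in the greater pool.

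Most of the male-biased list pointed the same way, at smaller size outside Hsd3b4, Hsd3b5 and Moxd1. The counts and medians that follow are of the whole list and include these genes. Of 36 genes, 30 were measured, 28 had a positive difference, 8 passed the 1.5-fold mark as higher (5 with normexp and loess) and 0 as lower, beside 0.877% each way over all genes, and the median difference was 0.33, beside 0.01 over all measured genes. The median ratio to the control was -0.10 in the greater pool and -0.51 in the less pool. Bcl6, a repressor that counters STAT5 at female-biased genes in male liver, had ratios of 0.27 and 0.05 in the greater pool and -0.98 and -1.32 in the less pool, a 2.48-fold difference. Selenbp2, a selenium-binding protein gene, had ratios of 0.97 and 0.90 in the greater pool and -0.07 and -0.08 in the less pool. The control channel of Selenbp2 was itself 0.34 lower on the greater arrays (-0.34), and the GALP channels compared directly differed by 0.72. The epidermal growth factor receptor Egfr differed by 0.92 ± 0.05, the terminal complement component C6 by 0.81 ± 0.01, and Cyp7b1, the oxysterol hydroxylase of the alternative bile acid pathway, by 0.64 ± 0.01. Elovl3, which elongates very long fatty acids, differed by 0.62 ± 0.08 but missed the mark in one orientation. The major urinary protein genes Mup1, Mup4 and Mup5 differed by 0.25 ± 0.03, 0.26 ± 0.14 and 0.27 ± 0.13, and these belong to a multigene family whose members share sequence. Trim24 (-0.15 ± 0.01) and Susd4 (-0.09 ± 0.00) were the 2 members with a negative difference. In the female-biased list (33 of 41 genes measured) 0 genes passed the mark either way and the median was -0.06. Its members farthest from 0 were Sult1e1, estrogen sulfotransferase, at -0.69 ± 0.30 and the inducible P450s Cyp2b10 and Cyp2b9 at -0.45 ± 0.11 and -0.45 ± 0.06.

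**Figure D2:**
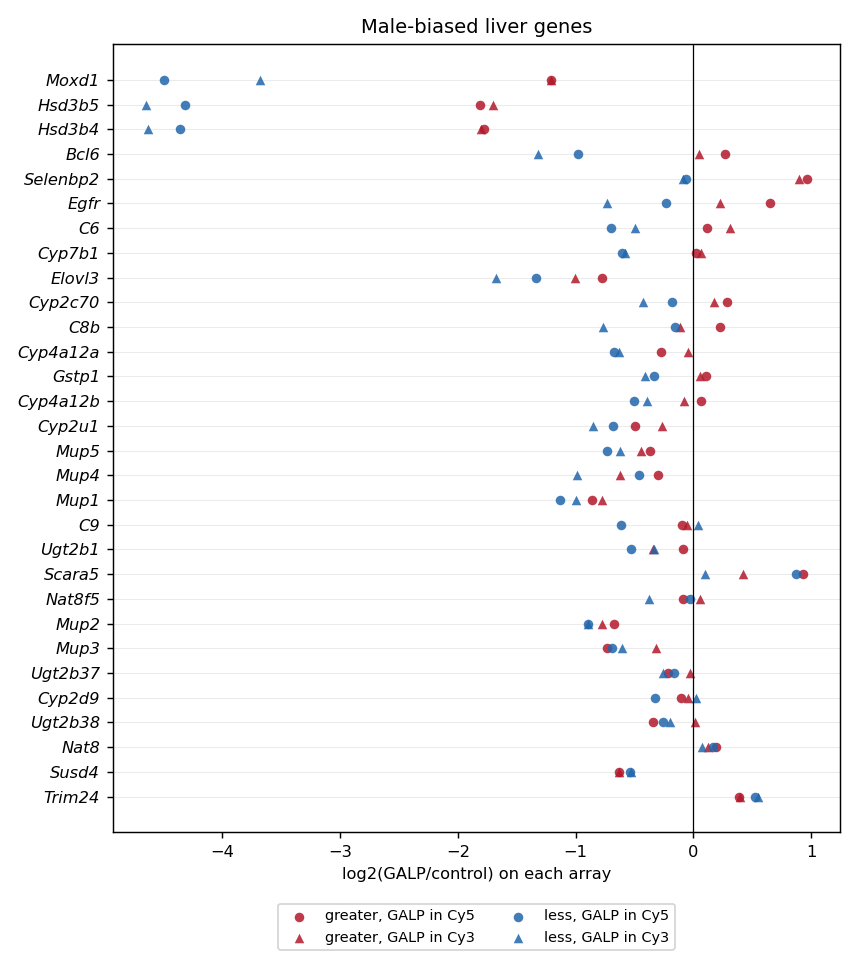
Each row is a measured male-biased liver gene and each point its log2(GALP/control) on 1 array, red for the greater and blue for the less weight loss pool, circles for GALP in Cy5 and triangles for GALP in Cy3. Moxd1, Hsd3b5 and Hsd3b4 lie below 0 in both pools and lowest in the less pool, and from Bcl6 to Cyp7b1 the red points lie to the right of the blue ones.

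Cish, a STAT5 target that restrains cytokine and growth hormone receptor signalling, went the other way. Its ratios were -0.34 and 0.03 in the greater pool and 0.64 and 0.73 in the less pool, a difference of -0.84 ± 0.19. Socs2, a further suppressor of growth hormone signalling, differed by 0.41 ± 0.06 and was not counted. The promoter window of Cish is shown because it holds the letters TTCNNNGAA that STAT5 binds. The window spans the bases around the gene's start, from RefSeq on GRCm38.p6, at chr9:107296409-107296708, plus strand, with the 2 matches in capitals:

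Cish: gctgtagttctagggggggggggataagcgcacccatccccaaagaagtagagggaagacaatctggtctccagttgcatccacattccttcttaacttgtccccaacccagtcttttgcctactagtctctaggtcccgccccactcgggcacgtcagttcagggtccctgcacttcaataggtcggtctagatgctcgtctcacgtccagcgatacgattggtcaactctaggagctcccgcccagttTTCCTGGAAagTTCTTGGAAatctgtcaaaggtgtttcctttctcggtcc

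These letters, read on both strands, were found in 8.30% of 32851 such windows and in 7.01% of the first windows of 8648 measured genes. Of the 8 counted male-biased genes, 7 had a window. Moxd1 and Bcl6 held a match, Bcl6 in both of its windows, while the windows of Hsd3b4, Hsd3b5, Egfr, Selenbp2 and C6 held none. A match is a description of the sequence, and its absence says only that these letters are not in the window.

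Asns, asparagine synthetase, was among the named higher genes with the largest differences. Its ratios were 2.00 and 2.00 in the greater pool and 0.31 and 0.11 in the less pool, so that it was 4.00-fold above the control in the former and 1.15-fold in the latter. The difference was 1.79 ± 0.15, and its probe lies at chr6:7625194-7625253 on mm9. Asns is a known target of ATF4, which is induced when amino acids are short or the endoplasmic reticulum is stressed. Its promoter window, at chr6:7693160-7693459, minus strand of GRCm38.p6, is shown with its 1 match to TGATGNAAN, the element bound by C/EBP and ATF4, in capitals:

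Asns: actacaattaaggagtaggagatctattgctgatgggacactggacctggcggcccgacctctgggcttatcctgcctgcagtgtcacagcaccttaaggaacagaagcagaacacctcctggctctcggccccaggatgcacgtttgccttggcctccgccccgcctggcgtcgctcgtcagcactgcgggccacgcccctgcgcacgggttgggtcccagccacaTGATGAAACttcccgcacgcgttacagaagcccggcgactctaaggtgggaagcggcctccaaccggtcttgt

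The element was found in 3.95% of all windows and in 2.27% of the first windows of measured genes, read on both strands. Other genes that ATF4 is known to drive, named after their values were seen, differed in both directions and were not counted, with Trib3 at -0.04 ± 0.16, Chac1 at -0.38 ± 0.12, Ddit3 at 0.40 ± 0.27 and Atf3 at 0.74 ± 0.22. In the heat shock and ER stress list (28 of 30 genes measured) Asns was the 1 gene counted, 22 members had a positive difference and the median was 0.15. The chaperone Hspa1b differed by 0.60 ± 0.14 and missed the mark in one orientation, and Hsph1, Hspa1a, Hsp90aa1 and Hspb1 differed by 0.48 ± 0.04, 0.47 ± 0.06, 0.44 ± 0.10 and 0.42 ± 0.06.

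Secreted factors of the liver also differed. Enho, which encodes the peptide adropin, linked to energy balance, had ratios of 0.78 and 0.78 in the greater pool and -0.56 and -0.49 in the less pool. It was thus 1.72-fold above the control in one pool and at 0.695 of it in the other (difference 1.31 ± 0.05). In the hepatokine and IGF list (33 of 36 genes measured) 3 genes were counted as higher and 1, Cish, as lower, beside 0.877% each way over all genes, with a median difference of 0.07. With normexp and loess the counts were 2 and 0. Besides Enho these were Igfbp2 and Igfbp5, binding proteins of insulin-like growth factors, at 0.78 ± 0.00 and 0.61 ± 0.02. The iron hormone gene Hamp differed by 0.57 ± 0.03, Fgf21 by 0.47 ± 0.20 and Gdf15 by 0.39 ± 0.07, none of them counted. Slpi, a secreted protease inhibitor, had ratios of 0.48 and 0.64 in the greater pool and -0.58 and -0.41 in the less pool. Noct, a deadenylase-like protein with a daily rhythm in liver and roles in lipid handling, had ratios of 0.86 and 0.86 in the greater pool and -0.15 and -0.24 in the less pool. All of Enho, Slpi and Noct were bright probes whose 2 orientations differed by little.

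Clock genes as a list did not pass the mark: of 16 measured of 22, 0 were counted and the median was 0.02. Nr1d1, a repressor of the clock, differed by 0.76 ± 0.38, and Dbp, whose amplitude is large in liver, by 0.02 ± 0.12. Rgcc, a regulator of the cell cycle, differed by 1.26 ± 0.51 and Fam187b by 1.11 ± 0.40, both with a wider gap between orientations. Serpina4-ps1, annotated as a serpin pseudogene, had ratios of 1.70 and 1.12 in the greater pool, fell short of the background limit in the less pool, and differed by at least 4.15-fold. Lama3, a laminin chain, was at least 1.32-fold higher.

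A few macrophage genes were higher in the greater weight loss pool, while the macrophage list as a whole was not. Gpnmb, a glycoprotein of lysosome-rich macrophages, had ratios of 3.09 and 2.69 in the greater pool and 1.49 and 0.40 in the less pool, 7.41-fold and 1.92-fold above the control (difference 1.95 ± 0.49). Trem2, a lipid-sensing receptor of macrophages, had ratios of 1.15 and 1.16 in the greater pool and 0.51 and 0.52 in the less pool. Of 25 Kupffer cell and macrophage genes, 22 were measured, 3 were counted as higher (Gpnmb, Trem2 and Ly6c1, the last with a dim probe) and 0 as lower, beside 0.877% each way over all genes. Gpnmb was also among the 2850 dimmest of the measured genes. The 3 became 1 with normexp and loess and 2 where all GALP channels had to be well above background. In the list 13 genes had a negative difference, with a median of -0.04. Markers of resident Kupffer cells had small negative differences: Clec4f -0.23 ± 0.08, Vsig4 -0.36 ± 0.20 and Timd4 -0.22 ± 0.11. Lyz2, lysozyme, differed by 0.59 ± 0.13 and missed the mark in one orientation, and Spp1, osteopontin, differed by -0.55 ± 0.17.

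Further immune genes counted as higher belonged to no list, so they are named after their values were seen. Ccl5, a chemokine for T cells and monocytes, had ratios of 1.46 and 1.60 in the greater pool and 0.45 and 0.64 in the less pool. Ccl4, a related chemokine, differed by 0.66 ± 0.08. Chil3 and Retnla, genes of alternatively activated mouse macrophages, differed by 0.92 ± 0.08 and 1.29 ± 0.00, and Adam8, a protease of myeloid cells, by 0.93 ± 0.25. The cytotoxic granule protease Gzmb differed by 0.74 ± 0.03. Retnla was well above background on 1 of the 2 less arrays. The monocyte attractant Ccl2, a member of the macrophage list, differed by 0.52 ± 0.12 and was not counted. Interferon-stimulated genes (30 of 37 measured) had a median of 0.12 with 0 counted, stellate cell and fibrosis genes (24 of 26) 0.15 with 0 counted, sinusoidal endothelium (19 of 19) 0.01 with 0 counted, and hepatocyte markers (26 of 30) 0.08 with 0 counted.

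Metallothioneins were higher in both GALP pools than in the control, and more so in the less weight loss pool. Mt2, which binds zinc and copper, had ratios of 0.99 and 0.82 in the greater pool and 2.06 and 2.10 in the less pool, 1.88-fold and 4.23-fold above the control. Mt1 had ratios of 0.88 and 0.86 in the greater pool and 1.72 and 1.65 in the less pool. The differences were -1.17 ± 0.15 for Mt2 and -0.82 ± 0.04 for Mt1. The control channel of Mt2 was itself 0.44 higher on the greater arrays, and the GALP channels compared directly, without the control, gave -0.71 for Mt2 and -0.79 for Mt1. The promoter windows of both genes, neighbours on chromosome 8 that moved together, are shown with the metal response element core (TGCACNC or TGCGCNC, either strand) in capitals, at chr8:94172368-94172667 for Mt2 and chr8:94178839-94179138 for Mt1, plus strand of GRCm38.p6:

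Mt2: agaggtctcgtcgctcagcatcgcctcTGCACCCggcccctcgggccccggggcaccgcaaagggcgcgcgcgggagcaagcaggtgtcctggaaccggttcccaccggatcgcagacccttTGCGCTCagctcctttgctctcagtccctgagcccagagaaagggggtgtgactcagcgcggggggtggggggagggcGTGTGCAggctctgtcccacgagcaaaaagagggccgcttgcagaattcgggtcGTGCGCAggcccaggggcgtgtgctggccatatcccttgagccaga

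Mt1: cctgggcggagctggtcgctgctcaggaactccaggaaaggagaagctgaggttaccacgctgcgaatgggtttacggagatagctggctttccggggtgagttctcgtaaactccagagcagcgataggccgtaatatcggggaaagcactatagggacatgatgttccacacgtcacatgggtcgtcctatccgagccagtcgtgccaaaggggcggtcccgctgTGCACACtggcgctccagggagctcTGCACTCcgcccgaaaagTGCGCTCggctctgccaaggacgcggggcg

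The windows held 4 matches for Mt2 and 3 for Mt1, and 25.7% of all windows, or 35.6% of the first windows of measured genes, held at least 1. In the metallothionein and zinc list (10 of 11 genes measured) these were the 2 genes counted, both lower, beside 0.877% each way over all genes, and the median was -0.14. The zinc exporter Slc30a1, a further target of the metal-responsive factor MTF1, differed by 0.15 ± 0.07, and the zinc importers Slc39a4 and Slc39a14 by -0.24 ± 0.08 and -0.20 ± 0.01. The acute phase list (30 of 31 measured) also holds Mt1 and Mt2. These and Orm3 were its 3 genes counted as lower, beside 0.877% over all genes, and the median was -0.05. With normexp and loess 2 were counted as lower. The serum amyloid A genes Saa1 and Saa2 differed by -0.35 ± 0.03 and -0.33 ± 0.01. Orm3, an orosomucoid, differed by -1.10 ± 0.07, but its control channel was 1.09 higher on the greater arrays and the GALP channels compared directly differed by -0.02.

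Prap1, a proline-rich acidic protein of gut and liver, followed Dmbt1 among the named lower genes outside the lists of other tissues, at -2.56 ± 0.14. Its ratios were -3.51 and -3.41 in the greater pool and -0.86 and -0.95 in the less pool, so unlike the pancreas genes it was below the control in both. The stomach and intestine list also had median ratios below the control in both pools, at -3.41 in the greater and -0.32 in the less pool. Prap1 is known from the intestinal epithelium as well, and the part of gut RNA in its difference was not tested. Nupr1, a stress-induced transcriptional regulator that is abundant in pancreas, had ratios of -0.21 and -0.24 in the greater pool and 0.65 and 0.96 in the less pool. S100g, a calcium-binding protein of the gut, differed by -1.13 ± 0.39 on a dim probe. The lower genes named next were dim as well. Amigo2, an adhesion molecule, differed by -1.39 ± 0.83, Slc52a3, a riboflavin transporter, by -1.30 ± 0.37, Ift88, a protein of ciliary transport, by -1.20 ± 0.56, and Prex1, an exchange factor for Rac, by -1.10 ± 0.55. Lgals2, a galectin, was at least 1.55-fold lower, with neither greater array and 1 less array well above background.

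**Figure D3:**
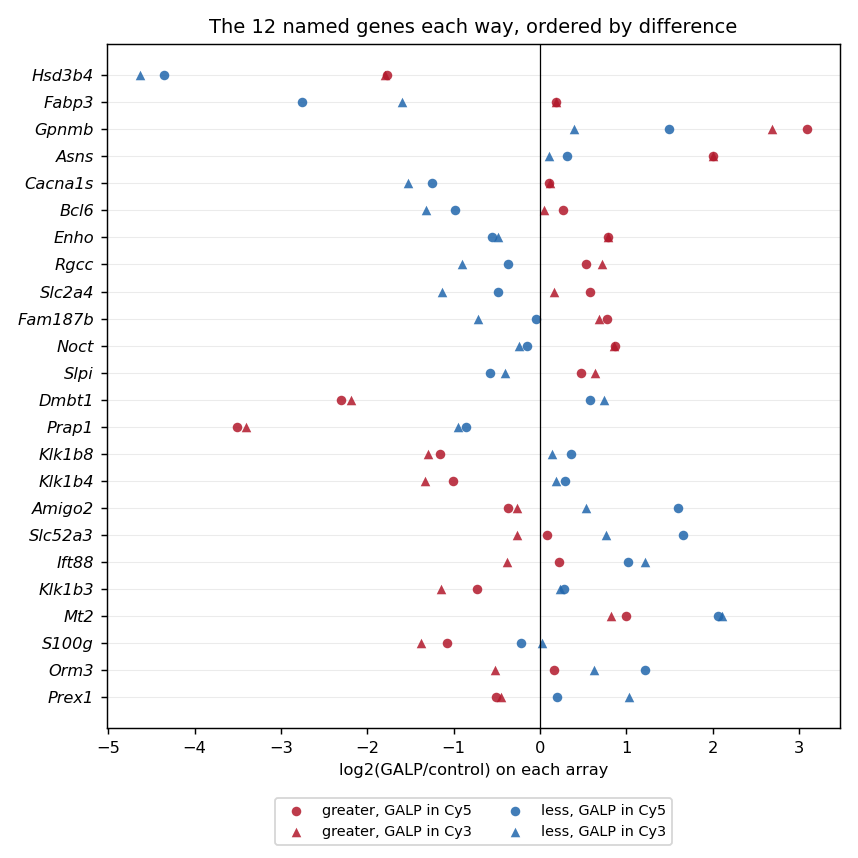
Each row is one of 12 named genes higher (from Hsd3b4 to Slpi) and 12 lower (from Dmbt1 to Prex1) in the greater weight loss pool, and each point its log2(GALP/control) on 1 array, red for the greater and blue for the less pool, circles for GALP in Cy5 and triangles for GALP in Cy3. Asns, Enho, Noct and Slpi show tight pairs of arrays, whereas the pairs of Amigo2, Fabp3 and Gpnmb lie wider apart.

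Pathways of lipid metabolism separated the pools little. In the cholesterol synthesis list 25 of 25 genes were measured and 0 were counted either way, with a median of -0.07. Its median ratio was below the control in both pools, at -0.40 in the greater and -0.30 in the less pool. Sqle, squalene epoxidase, had ratios of -0.68 and -0.81 in the greater pool and -0.16 and -0.46 in the less pool. In the fatty acid and triglyceride synthesis list (27 of 30 measured) 0 were counted, 21 had a positive difference and the median was 0.13. Fasn, fatty acid synthase, was at 0.67 of the control in the greater pool and at 0.48 in the less pool, a difference of 0.47 ± 0.10. Acaca, which makes malonyl-CoA, differed by 0.39 ± 0.03 and the elongase Elovl6 by 0.36 ± 0.06. In the fatty acid oxidation and ketogenesis list (30 of 32 measured) 0 were counted, 25 had a negative difference and the median was -0.08. Cpt1a, which admits fatty acids to mitochondria, differed by -0.19 ± 0.05.

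Single genes of lipid handling passed the mark, but not all did so under other processing. With normexp and loess 0 genes were counted as higher in the adipose, bile acid or lipid droplet and fatty acid uptake lists. Cidea, a lipid droplet protein that marks steatosis in liver and is abundant in brown fat, had ratios of -0.76 and -0.59 in the greater pool and 0.25 and 0.22 in the less pool. It was the 1 counted gene of 21 measured PPARα targets, whose median was -0.11, and it was still counted as lower with normexp and loess. Lpl, lipoprotein lipase, had ratios of 0.77 and 0.60 in the greater pool and 0.19 and -0.28 in the less pool. In the adipose tissue list (9 of 16 measured) Cidea was lower and Adipoq, adiponectin, was higher by 0.63 ± 0.06. Its median was -0.21, and the part of fat taken with the liver was not tested. Csad, an enzyme of taurine synthesis, differed by 0.80 ± 0.10. Cyp7a1, the rate-limiting enzyme of bile acid synthesis, was 1.79-fold above the control in the greater pool and 1.20-fold in the less pool, a difference of 0.58 ± 0.14 that missed the mark in one orientation, and Cyp7b1 was the 1 counted gene of the bile acid list (21 of 24 measured, median 0.05). Sort1, the sorting receptor sortilin, had ratios of 0.28 and -0.22 in the greater pool and -0.34 and -0.79 in the less pool, on a dim probe. Its difference of 0.59 ± 0.04 missed the mark in one orientation. Lists of oxidative phosphorylation (41 of 44 measured, median -0.05), glucose metabolism (25 of 26, median -0.01) and the cell cycle (24 of 34, median 0.11) had 0 counted genes.

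**Figure D4:**
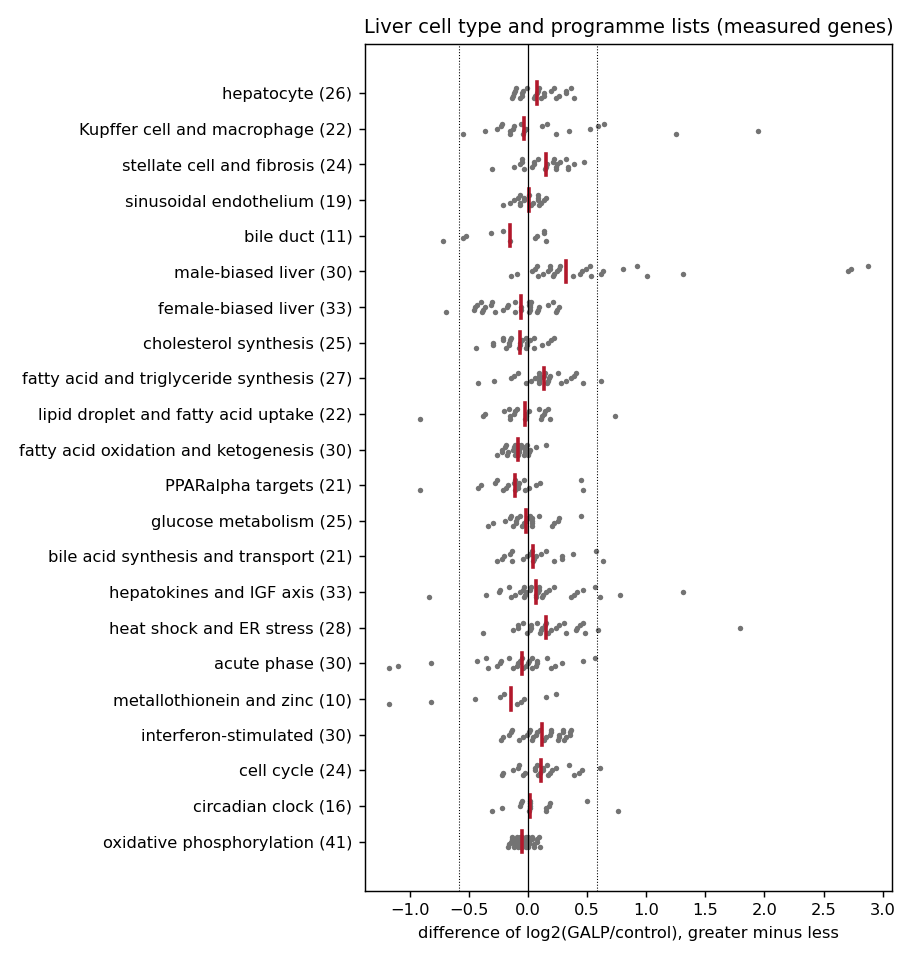
Each row is a list of liver cell type or programme genes with the number measured, each grey point a gene's difference of log2(GALP/control), greater minus less weight loss pool, and the red bar the list's median. Dotted lines mark 1.5-fold. The medians lie between -0.15 (bile duct) and 0.33 (male-biased liver). Single genes lie beyond the dotted lines in many rows, among them the male-biased, macrophage, hepatokine, ER stress, metallothionein, acute phase, lipid droplet and PPARα rows.

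The size of these differences changed with the processing. With normexp background correction (offset 50) and loess dye normalisation, applied together, 27 genes were higher and 41 lower, and the medians were 0.39 for skeletal muscle, -3.47 for the pancreas and 0.19 for the male-biased list. The differences were then 0.86 for Hsd3b4, 0.32 for Hsd3b5, 1.08 for Asns, 1.08 for Gpnmb, 0.07 for Sort1, -0.67 for Prap1, -1.01 for Dmbt1 and 1.36 for Fabp3. Noct at 1.04, Mt2 at -1.15 and Mt1 at -0.79 stayed within the spread of their orientations, whereas Enho at 1.03, Bcl6 at 0.99 and Slpi at 0.88 were smaller by more than that spread.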

How the data were processed

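Total RNA of mouse liver was pooled by group and hybridised to 4 two-colour Agilent arrays of 1 slide. Per the file headers the authors used Feature Extraction 12.0.3.1 (the submitters' notes name 11.0.1.1) to subtract background and normalise dyes, which gave a deposited intensity per dye. The same software gave the deposited log10 ratio of Cy5 to Cy3 and the deposited p-value of that ratio, which was not used. The deposited series table correlated with the ratios, as GALP over control, at r = 0.971 to 0.997, and its columns had log2 medians of -0.13, -0.04, 0.02 and 0.02.

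Ratios were put on the log2 scale with GALP as numerator. Outlier-marked spots (232 to 319 of 43379 per array) were dropped, spots of a probe were averaged, and each gene took its brightest measured probe (15712 of 41174 probes were measured). The fraction of spots well above background was 40.5 to 46.7% per channel, 0 spots were saturated, and precision is limited by having 4 arrays. Probe positions are on mm9, without exon annotation, and 72.5% of the probes had an accession in the RefSeq table used for names. Arrays gave no counts, so no depth is stated.

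A gene was counted at 1.5-fold in both orientations. No test was run. Named are the 12 genes with the largest difference each way that had signal in all GALP channels and lay in no list of another tissue, up to 5 limits each way, the extreme members of each list, and Mt1, Mt2, Hsd3b4, Hsd3b5, Prap1 and Sort1. Some genes are not reported here, and the 12 each way skip them, so they are not always the 12 largest. The members and lists were chosen with earlier results of these data known. Alternatives were normexp with loess (limma 3.58.1 in R 4.3.3, offset 50), centring, the series table, outlier spots kept, other detection filters, single orientations, GALP channels compared directly after quantile scaling, other units and other thresholds. Python 3.11.15, numpy 2.4.6, pandas 2.3.3 and matplotlib 3.10.9 were used.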

Additional observations from a re-analysis of the deposited data

Results flagged for a closer look

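In the following results GALP over control had one sign on both arrays of one pool and the opposite sign on both arrays of the other. Each group is 1 pool, so the difference between pools was not tested. Among the lists these were the medians of the pancreas (-4.36), skeletal muscle (2.30) and oxidative phosphorylation (-0.05). Among the named genes higher in the greater weight loss pool, Fabp3 (2.37), Cacna1s (1.5), Bcl6 (1.31), Enho (1.31), Rgcc (1.26), Slc2a4 (1.18), Fam187b (1.11), Noct (1.06) and Slpi (1.05) lay above the control in the greater pool and below it in the less pool. Among those lower, Dmbt1 (-2.91), Klk1b8 (-1.48), Klk1b4 (-1.40), Amigo2 (-1.39), Klk1b3 (-1.20) and Prex1 (-1.10) lay below the control in the greater pool and above it in the less pool.

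Outside the measured genes, Pcdh20, a protocadherin of cell adhesion, was well above background in the GALP channel of both greater weight loss arrays and in no other channel. Its processed signal was 230 and 146 there, 7.75 and 10.2 in the GALP channel of the less arrays, and between 7.68 and 10.7 in the control channels. The control being at background, its level in the greater pool was at least 6.06-fold that of the control. In the less pool a probe without a gene name here, NAP024195-001, was likewise well above background in the GALP channel alone, with a signal of 292 and 167 against 7.14 and 6.19 in the GALP channel of the greater arrays, and it was at least 6.0-fold above the control.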

How the results depend on the processing

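The count of 100 higher and 100 lower genes became 27 and 41 with normexp and loess, 709 and 507 without a detection filter, 259 and 269 on the arrays with GALP in Cy5 alone, 385 and 395 on those with GALP in Cy3 alone, 46 and 58 at 2-fold, and 203 and 190 at 1.5-fold on the mean alone. With the GALP channel required well above background on all 4 arrays 59 were higher, and without genes known from other tissues, an alternative chosen after seeing the data, 56 were lower. All 68 genes counted with normexp were among the 200. The pancreas median was -3.47 with normexp, -4.22 without a detection filter and -4.12 with GALP channels compared directly. The skeletal muscle median was 0.39 with normexp and 1.47 without a filter. The male-biased median was 0.19 with normexp, 0.32 after centring, 0.27 both with the GALP filter and without a filter, 0.39 and 0.40 on single orientations, and 0.42 with GALP channels compared directly, all positive. Of 27 named genes under 10 alternatives, 269 of 269 differences kept their sign and 235 stayed within the spread of the orientations. Part of this was fixed in advance. A counted gene passed 1.5-fold in both orientations, so a single orientation could not change its sign. By the definition of the spread, a single orientation always lay within it. The series table and the outlier spots kept each returned all 200 counted genes. Under normexp 20 of the 27 shrank by over 1.5 times and 14 stayed past 1.5-fold on the mean. With GALP channels compared directly 4 shrank by over 1.5 times, among them Slc52a3 to -0.60 and Orm3 to -0.02. The cause was not tested. No paired analysis was possible because each group is 1 pool. Low signal limits the genes near background.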

Other observations

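In the greater weight loss pool 74 probes were well above background on both arrays while every other channel was not, against 2 probes for the less pool. Of these, 7 of the 74 and both of the less pool were over 2-fold above the control on both arrays, and with the control set to the lowest signal well above background 1 probe of each pool was, at least 6.06-fold for Pcdh20 and at least 6.0-fold for NAP024195-001. The GALP channels of the greater arrays had 18820 and 18624 probes well above background, and those of the less arrays 17510 and 17227, while the control channels had 16287 to 18744.

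Bile duct genes (11 of 15 measured) had a median difference of -0.15 with 0 counted, and Krt19 and Cldn7, keratin and claudin genes of the duct epithelium, differed by -0.72 ± 0.34 and -0.52 ± 0.13. Immediate early genes (22 of 25 measured) had 0 counted and a median of 0.14, with Atf3 at 0.74 ± 0.22 and Egr1 at 0.64 ± 0.26.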
